A study of Homo sapiens with 14 samples.

Results

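The clustered protocadherin genes lie on the long arm of chromosome 5 in 3 neighbouring arrays, alpha (PCDHA), beta (PCDHB) and gamma (PCDHG). Open chromatin in these arrays was followed through ATAC-seq peaks, sites where the Tn5 transposase inserts sequencing adapters into accessible DNA. Members were all peaks of the 14 deposited lists that overlap chr5:140150000-140920000 (hg19), an interval of 770 kb. It was divided by position into alpha (250 kb), beta (290 kb) and gamma (230 kb) parts. There were 404 such peaks among 1971391 in all lists, of which 59 lay in alpha, 99 in beta and 246 in gamma. Peaks that overlapped by at least 1 bp were merged into 89 regions, 29 in alpha, 23 in beta and 37 in gamma. The interval is longer than the gene arrays and also covers neighbouring genes. No annotation of hg19 was used, so regions are named by the position of their middle in kb and are not tied to single genes, promoters or enhancers. For peaks and regions, alpha, beta and gamma mean these parts of the interval, and where each array ends within its part was not examined. Regions near the far end of the gamma part may therefore lie outside the gene array.

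Each group held 2 libraries of 100000 cells. LHCN cells are immortalised human myoblasts and received either empty vector or PAX3-FOXO1, which they then overexpressed for 72 h. PAX3-FOXO1 is the fusion transcription factor of alveolar rhabdomyosarcoma, a childhood tumour with muscle features. RH30, a line from such a tumour that carries its own PAX3-FOXO1 fusion, was kept in 0.1% DMSO or treated with QC6352 at 200 nM, a compound that inhibits histone demethylases of the KDM4 family. Other RH30 cells carried short hairpin RNAs for 72 h, and the labels do not make clear whether that time also holds for QC6352 and DMSO. These were shKDM4B-813 and shKDM4B-814, which target the demethylase KDM4B, and the control shCtrl. The 2 lines were grown in different media, and the promoter that drives the fusion in LHCN is not given in the sources used here. ATAC-seq does not measure KDM4B or fusion protein, and muscle or other lineage markers were not looked up without an annotation. Whether replicates came from separate cultures is not stated, so p-values measure only how these libraries vary, and that variation may be technical.

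Clustered protocadherins are cadherin-like adhesion proteins best known from neurons, where combinations of isoforms give cells a surface identity. In the alpha and gamma arrays, many variable first exons, each with its own promoter, are spliced to a shared set of constant exons. The beta array is a row of single-exon genes. Which promoters are used is known to depend on DNA methylation, on CTCF and cohesin, and on shared enhancers that lie downstream of the variable exons.

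The variable promoters share a short conserved element, shown here because it is the sequence that members of an array have in common. Sequences came from RefSeq (GRCh38.p14), from 250 bases before to 50 bases after each gene start, and no peak was placed on them because the builds differ. The table held 13 PCDHA, 14 PCDHB and 20 PCDHG promoters. The 8-base word found upstream in the most promoters of each array is printed in capitals, with flanking bases in lower case, 5′ to 3′ on the sense strand of the gene.
PCDHA1: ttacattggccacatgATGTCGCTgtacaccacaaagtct
PCDHA4: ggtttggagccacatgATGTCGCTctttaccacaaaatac
PCDHA8: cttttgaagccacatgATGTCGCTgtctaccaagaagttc
PCDHB2: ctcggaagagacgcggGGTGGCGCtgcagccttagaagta
PCDHB7: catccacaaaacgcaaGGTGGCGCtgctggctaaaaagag
PCDHB16: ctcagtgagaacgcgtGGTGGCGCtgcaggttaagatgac
PCDHGA8: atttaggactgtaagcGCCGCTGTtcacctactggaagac
PCDHGA10: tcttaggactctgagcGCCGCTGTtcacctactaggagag
PCDHGB4: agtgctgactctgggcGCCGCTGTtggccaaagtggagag
The alpha word ATGTCGCT stood in 9 of 13 PCDHA promoters and in 0.117% of all 27305 promoters. The beta word GGTGGCGC stood in 12 of 14 PCDHB promoters and in 1.03% of all, and the gamma word GCCGCTGT in 11 of 20 PCDHG promoters and in 0.626% of all. None of the 3 words occurred in promoters of either other array. These words were chosen for being shared, so the counts describe them and are no test. The core CGCT, on either strand, was in 12 of 13 alpha, 14 of 14 beta and 20 of 20 gamma promoters, against 69.4% of all promoters. CCCTC, a core of the CTCF motif, was in 3 alpha, 0 beta and 9 gamma promoters on either strand, against 70.3% of all. A longer CTCF consensus was in 0 alpha, 1 beta and 0 gamma promoters, against 1.52%. Median GC content was 37.3% in PCDHA, 40.8% in PCDHB and 42.0% in PCDHG promoters, against 58.3% over all promoters.

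List lengths ran from 93488 to 176899 peaks, and sequencing depth is unknown. All lists were therefore cut to the strongest 93488 peaks by −log10 q when lines were compared. The same lists were used wherever peaks per library were counted, also within an experiment. For regions within an experiment, lists were cut to its shortest list, which was 170390 peaks in LHCN, 105136 for QC6352 and 93488 for the hairpins. The strength of a peak is given as its within-list percentile, which is near 100 for the strongest peak and 0 where the library's list has no peak in the region. The map of peaks by library shows the arrangement of open sites along the interval.

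**Figure D1:**
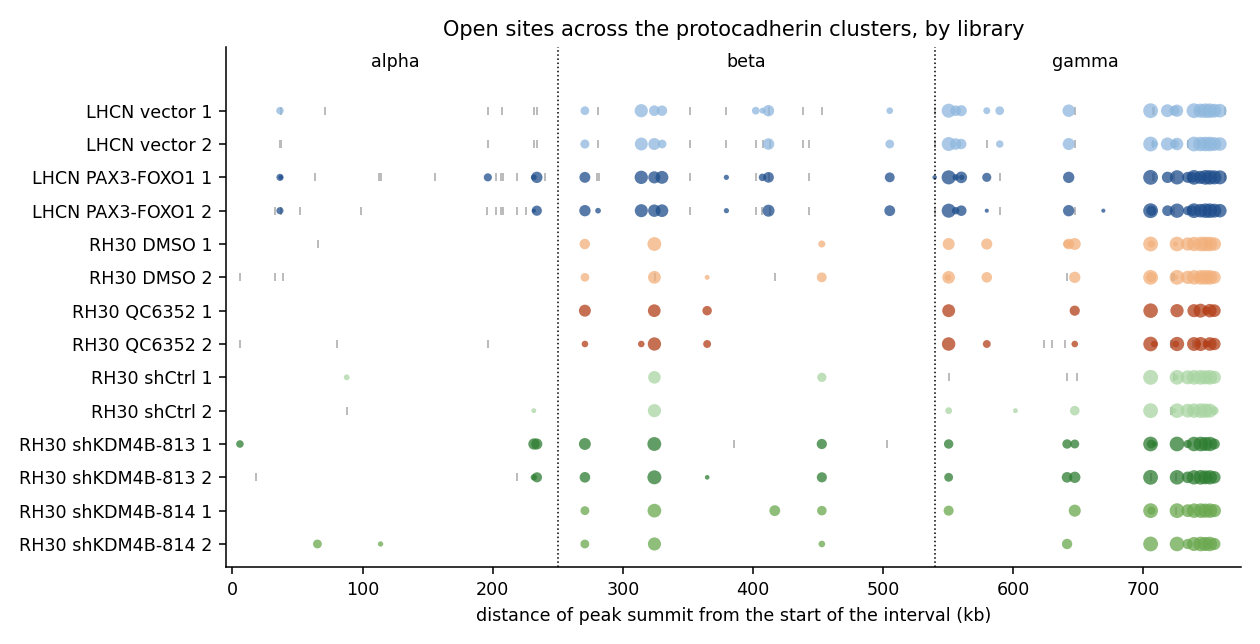
Position of every peak in the 3 parts of the interval (x axis, kb from its start) in each of the 14 libraries (rows). Filled circles are peaks in the equal-length lists, larger for a higher percentile, and grey ticks are weaker deposited peaks; gamma holds a dense row of strong peaks at its far end in every library, and beta peaks are more frequent in the 4 LHCN libraries.

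Most merged regions with a peak in every library lay in the gamma part. Of the 89 regions, 8 had a peak in all 14 deposited lists, 7 of them in gamma, 1 in beta and 0 in alpha. In alpha, 18 of 29 regions had a peak in 1 library only, against 4 of 23 in beta and 8 of 37 in gamma. No alpha region had a peak in as many as 5 of the 10 RH30 libraries, whereas 3 beta and 12 gamma regions did. The matching shares of all regions in the genome were not computed. These counts therefore compare only the 3 parts with each other. On the lists of 93488 peaks, the strongest alpha peak in LHCN was at 140384 kb, at percentile 54.9 with PAX3-FOXO1, and in RH30 it was at 140382 kb, at 54.3 with shKDM4B-813.

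Within gamma, the 7 regions shared by all libraries had their middles between 140856 and 140904 kb. The one at 140898 kb merges neighbouring peaks, and the first QC6352 library has a peak only in its farther part. The region at 140856 kb (chr5:140855166-140856663) ranked between percentile 94.7 and 99.3 in the 14 libraries. It was the strongest gamma region with PAX3-FOXO1 and in all 10 RH30 libraries. With the vector, the region at 140888 kb (chr5:140886882-140889286) was the strongest, at percentiles 98.7 and 98.3. Its percentile was 75.3 to 95.7 in RH30. The others, at 140876, 140894, 140898, 140901 and 140904 kb, are described with the treatments. The median distance between gamma regions open in all 4 LHCN libraries was 4.92 kb, against 15.7 kb in beta.

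In beta, the region at 140474 kb (chr5:140473887-140474594) was the one open in all 14 libraries. Its percentiles were 47.1 and 62.0 with vector, 63.9 and 67.1 with PAX3-FOXO1, and 68.4 to 86.9 in RH30. Every RH30 library thus ranked it above every LHCN library. The next most widespread beta region, at 140421 kb, had a peak in 12 libraries and none in either shCtrl library.

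The lines differed most clearly in peak number in the beta part. At equal list length, the 4 LHCN libraries had 8, 6, 9 and 8 beta peaks, and the 10 RH30 libraries had 1 to 4. The means were 7.75 ± 1.26 (SD, n = 4) and 3.10 ± 0.994 (SD, n = 10), and the ranges did not overlap (exact permutation test over libraries, two-sided, p = 0.000999, the smallest that 1001 relabelings allow; Benjamini-Hochberg adjusted p = 0.00999 over 20 tests). Over all 3 parts, LHCN had 27.2 ± 4.27 peaks and RH30 16.1 ± 3.14 (exact permutation, adjusted p = 0.00999). Gamma peaks numbered 17.2 ± 0.957 in LHCN and 12.1 ± 2.88 in RH30, which missed the threshold (exact permutation, adjusted p = 0.0533). In alpha the means were 2.25 ± 2.22 and 0.900 ± 1.10 (exact permutation, adjusted p = 0.513). Tests between the lines, here and below, took each library as a separate unit. The libraries form 7 groups of 2 that were pooled by line. Libraries of the same group may resemble each other, which would make these p-values too small.

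RH30 also had fewer peaks on the whole of chromosome 5, 4468 ± 561 against 5812 ± 84.3 in LHCN, with no overlap. As a share of each library's chromosome 5 peaks, beta held 0.0685% ± 0.0190 in RH30 and 0.133% ± 0.0206 in LHCN, again without overlap (exact permutation, p = 0.000999, adjusted p = 0.01998 over the same 20 comparisons on that scale). The 3 parts together held 0.359% in RH30 and 0.468% in LHCN (exact permutation, p = 0.00599). This share passed when adjusted over the 5 tests added after seeing the data (exact permutation, adjusted p = 0.00999) and missed the threshold when adjusted over the 20 (adjusted p = 0.0599). Gamma passed under neither adjustment (exact permutation, adjusted p = 0.377 and 0.579). The flanks, 770 kb on either side of the interval, also held fewer peaks in RH30, 77.5 ± 9.70 against 94.25 ± 8.42 in LHCN. Their ranges overlapped (exact permutation, p = 0.0140, adjusted p = 0.0175 over the 5 added tests). With only the 2 vector and 4 RH30 control libraries, beta had means of 7 and 2.5 peaks, and the exact permutation p was 0.0667, the smallest that 6 libraries allow.

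**Figure D2:**
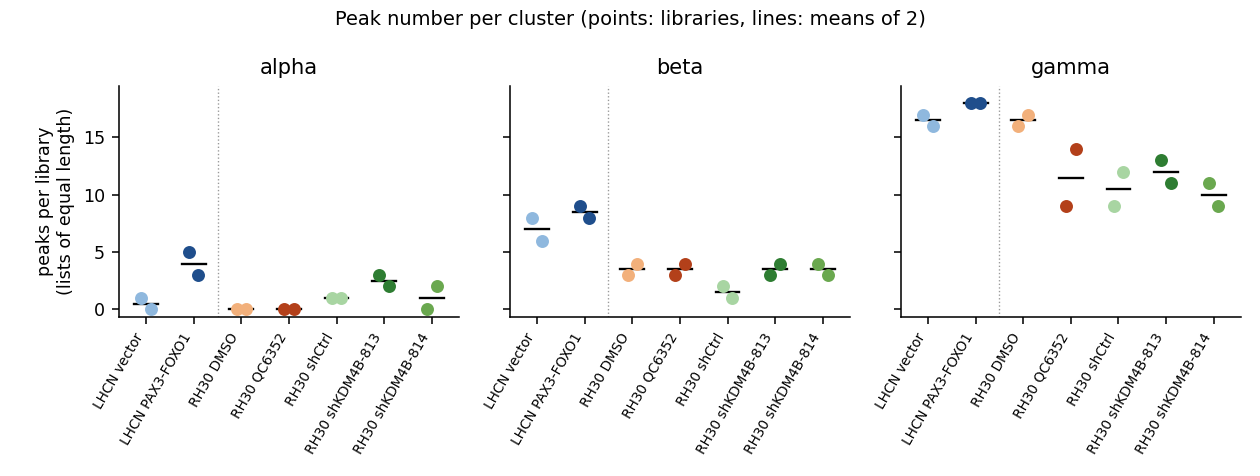
Number of peaks per library (y axis, lists of equal length) in the alpha, beta and gamma parts for the 7 groups (x axis). Points are libraries and black lines are means of 2. In beta the LHCN libraries have 6 to 9 peaks and the RH30 libraries 1 to 4, and in alpha the PAX3-FOXO1 libraries have the most, 5 and 3.

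Region by region, 9 of the 50 regions in the equal-length lists ranked higher in LHCN (18.0%), against 11.4% of all 243368 regions in the genome (exact permutation of percentiles over 14 libraries, Benjamini-Hochberg adjusted p = 0.00787 for each). Of these 9, 4 were in beta, 5 in gamma and 0 in alpha. Each library again counted as a separate unit, with the groups pooled by line. The beta region at 140464 kb (chr5:140463993-140464535) had percentiles of 76.8, 73.1, 78.2 and 74.8 in LHCN. In RH30 it had a peak in 1 library, the second with QC6352, at percentile 13.8. The beta region at 140562 kb (chr5:140561724-140562082) had percentiles of 47.9 to 62.7 in LHCN and no peak in any RH30 list.

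The largest difference was in gamma, at 140909 kb (chr5:140908396-140909155). This region ranked at 80.7 to 87.2 in the 4 LHCN libraries, and no RH30 library had a peak there. At 140869 kb (chr5:140868111-140869196) the LHCN percentiles were 72.3 and 75.4 with vector and 54.9 and 48.3 with PAX3-FOXO1, and RH30 again had none. The others were at 140480 and 140655 kb in beta and at 140706, 140710 and 140793 kb in gamma, named after their values were seen. Open sites that RH30 lacked thus stood among sites that it shared with LHCN. In the opposite direction, 1 of 50 regions passed, against 5.79% of all regions. It was the shared beta region at 140474 kb, with mean percentiles of 78.0 ± 6.68 (SD, n = 10) in RH30 and 60.0 ± 8.85 (SD, n = 4) in LHCN.

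Restricting the comparison to controls, 9 of 38 regions had a peak in both vector libraries and in none of the 4 DMSO and shCtrl libraries (23.7%), against 18.2% of all regions. They comprised 4 of 10 in beta, 5 of 25 in gamma and 0 of 3 in alpha. The reverse pattern was seen in 1 of 38 regions (2.63%), against 6.71% of all. This was the gamma region at 140884 kb (chr5:140883809-140884137). Its percentiles were 77.3 and 77.2 with DMSO and 87.6 and 84.5 with shCtrl, and it was absent from both vector lists at this length. The deposited list of the second vector library holds a weaker peak there. With the lists as deposited the count in this direction was therefore 0, and 24 regions were open with vector only. Shares of all regions on the deposited lists were not computed, so these counts cannot be read against the genome.

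In LHCN, the regions gained with PAX3-FOXO1 all lay at the far end of the alpha part, and their share did not exceed that of all regions. On lists of 170390 peaks, 4 of 64 regions were gained, with a peak in each PAX3-FOXO1 library but no vector library (6.25%), against 8.15% of all regions. All 4 were among the 20 alpha regions, at 140353, 140357, 140358 and 140368 kb. The strongest, at 140368 kb (chr5:140368232-140368533), had percentiles of 25.7 and 26.0, so these were weak peaks. At 140357 kb the deposited list of 1 vector library also holds a peak. In the reverse direction, 2 of 64 regions were open with vector only (3.12%), against 8.44% of all. These were at 140588 kb in beta, with vector percentiles of 33.4 and 20.4, and at 140893 kb in gamma, with 33.4 and 13.1. At 140893 kb the deposited list of 1 PAX3-FOXO1 library also holds a weaker peak. With 1 library fewer the rule is looser, and 10 regions were gained without either fusion library and 7 without the second vector library. Lost regions numbered 4 without the first fusion library or without the second vector library. The matching shares of all regions were not computed.

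Ranks within the lists were compared next. In 7 of 20 alpha regions both PAX3-FOXO1 libraries ranked above both vector libraries (35.0%), against 24.7% of all regions. In 0 of 20 both ranked below, against 31.0%. The 4 gained regions are among the 7. Most alpha regions had no peak in either vector list, so a lower rank was not possible there. Of the 5 alpha regions with a peak in all 4 libraries, 3 ranked higher and 0 lower. The share over all such regions of the genome was not computed. The 7 regions lay next to each other, from 140346 to 140384 kb, with 1 other region among them. The clearest was at 140384 kb (chr5:140383620-140384224). Its percentiles were 0.474 and 2.97 with vector and 75.2 and 68.6 with PAX3-FOXO1, and the authors' fold over background was 4.17 and 4.43 against 14.7 and 15.7. At 140382 kb the percentiles were 2.14 and 9.15 with vector and 50.1 and 45.3 with the fusion. At 140346 kb they were 16.5 and 1.00 against 58.6 and 40.1. The vector libraries thus had at most a weak peak at these sites. The count of 7 became 3 where only peaks with −log10 q of 10 or more were used and 0 among the 50000 strongest peaks, which hold few alpha peaks. It was 12 without the first PAX3-FOXO1 library and 13 without the second.

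In beta, 8 of 18 regions ranked higher in both PAX3-FOXO1 libraries (44.4%) and 2 of 18 lower (11.1%), against the same 24.7% and 31.0% of all regions. The region at 140480 kb (chr5:140479862-140480240) had percentiles of 70.0 and 61.6 with vector and 85.0 and 83.5 with the fusion. The region at 140421 kb had 61.2 and 63.0 against 72.8 and 75.3. The lower ranks were at 140552 kb, with 57.0 and 42.5 against 5.46 and 33.8, and at 140588 kb, as above. A peak in all 4 libraries was seen in 13 of 18 beta regions (72.2%), against 47.7% of all regions. The shares of higher and lower ranks were not matched for this. Of these 13 regions, 7 ranked higher and 1 lower, and the share over all such regions of the genome was not computed.

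In gamma, 11 of 26 regions ranked lower with PAX3-FOXO1 (42.3%) and 6 of 26 higher (23.1%), against 31.0% and 24.7% of all regions. Of the 18 gamma regions with a peak in all 4 libraries, 8 ranked lower and 5 higher. Here too the share over all such regions of the genome was not computed. The region at 140874 kb (chr5:140873535-140873940) had percentiles of 67.2 and 61.6 with vector and 0.464 and 23.0 with the fusion. At 140706 kb they were 71.0 and 76.3 against 51.8 and 55.8. At 140740 kb they were 61.2 and 55.7 against 32.4 and 38.2. Other gamma sites nearby ranked higher. The region at 140876 kb (chr5:140875339-140876101), about 2 kb from the one at 140874 kb, had 81.2 and 82.5 with vector and 95.1 and 95.2 with the fusion. The region at 140884 kb had 0 and 33.5 with vector and 73.4 and 63.5 with the fusion. Among the 50000 strongest peaks, 5 gamma regions ranked lower with the fusion. With 2 libraries against 2, no exact permutation p below 0.333 is possible, and total peak number in the interval (24.0 ± 2.83 and 30.5 ± 2.12, SD, n = 2) gave that p.

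**Figure D3:**
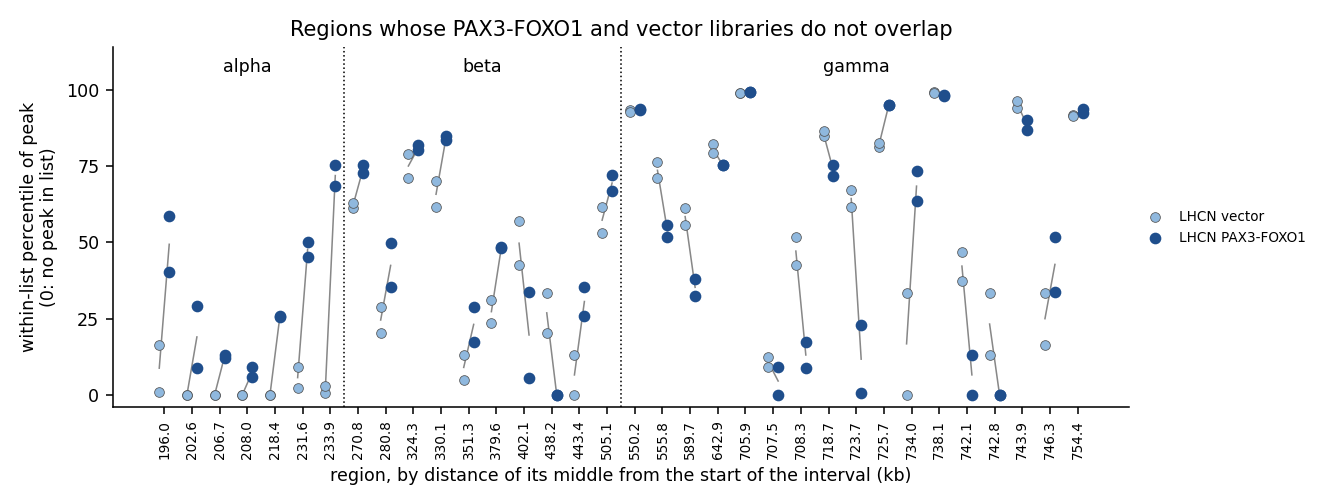
Within-list percentile (y axis) of the regions in which both PAX3-FOXO1 libraries lie on one side of both vector libraries, ordered along the interval (x axis, kb from its start); points are libraries and grey lines join the means of 2. All 7 alpha regions have higher PAX3-FOXO1 values, and gamma has 11 lower and 6 higher.

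Several of these sites can be set beside RH30, which carries the fusion as well. On the lists of 93488 peaks, the region at 140876 kb had percentiles of 65.8 and 68.2 with vector, 91.1 and 91.3 with PAX3-FOXO1 and 94.3 to 97.5 in the 8 RH30 libraries without QC6352. The region at 140884 kb had 0 and 0, 51.6 and 33.5, and 26.2 to 87.6 in the same order. The region at 140384 kb had 0 and 0 with vector and 54.9 and 42.8 with the fusion. In RH30 it was present with shKDM4B-813 only, at 51.8 and 42.2. The beta sites at 140464, 140480 and 140562 kb were open in LHCN with and without the fusion and had at most 1 peak in RH30. Of these, 140480 kb ranked higher with the fusion, at 72.8 and 70.0 against 45.3 and 30.0 with vector. The gamma region at 140894 kb ranked lower with the fusion, at 75.9 and 82.0 against 89.5 and 93.6. In the 8 RH30 libraries without QC6352 it had 95.3 to 96.6. The alpha region at 140346 kb had 24.6 and 0 with the fusion and no peak with vector or in RH30. The comparison of the lines and that of the fusion share the vector libraries, so these values are given side by side and no overlap was tested.

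With QC6352, the strong gamma sites of RH30 ranked lower. On lists of 105136 peaks, 11 of 20 gamma regions had both QC6352 libraries below both DMSO libraries (55.0%), against 19.0% of all regions. In 2 of 20 both QC6352 libraries were above (10.0%), against 15.4% of all. Among gamma regions with a peak in all 4 libraries, 7 of 8 ranked lower (87.5%), against 28.8% of all such regions in the genome. The genome shares cover regions of any strength and were not matched for the DMSO percentile. Most of these gamma regions stood near the top of the DMSO lists, where there is little room to rise. The exception was at 140700 kb (chr5:140699738-140700897), with percentiles of 65.9 and 73.5 with DMSO and 76.1 and 82.5 with QC6352. That count of 11 was 9 to 11 under the other list settings and 11 to 13 when any 1 library was left out.

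A pair of gamma sites differed most. The region at 140898 kb (chr5:140897319-140897796) ranked at 95.5 and 95.0 in the DMSO lists and at 0 and 4.42 in the QC6352 lists. In the deposited lists, 13 libraries had a peak with its summit there. The authors' fold was 12.6 to 72.1 in the 12 libraries without QC6352 and 4.51 in 1 QC6352 library, and the other QC6352 library had no peak over that summit. A separate peak at chr5:140898071-140898517, next to it, had percentiles of 7.71 and 0 with DMSO and 35.6 and 23.3 with QC6352. On the lists of 93488 peaks, the region that merges both peaks had percentiles of 86.1 to 96.4 in the 12 libraries without QC6352 and 27.5 and 13.8 with it.

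The region at 140884 kb (chr5:140883814-140884126) had percentiles of 79.8 and 79.7 with DMSO and no peak with QC6352, in the equal-length or the deposited lists. It was 1 of 2 regions of 28 lost with QC6352 (7.14%), against 7.21% of all regions. The other was the beta region at 140603 kb (chr5:140602776-140602989), with 26.1 and 46.1 with DMSO. No region of 28 was gained, against 6.48% of all. On these lists the shares of lost and gained regions did not exceed those of all regions. Lost regions numbered 4 at a −log10 q of at least 10 and among the 50000 strongest peaks. With 1 library fewer they numbered 6 without the second QC6352 library and 5 without either DMSO library. Gained regions numbered 3 without the first QC6352 library and 1 without either DMSO library. For these other settings no share of all regions was computed. Of the 11 gamma regions that ranked lower, 7 had a peak in all 4 lists, and 4 lacked one in at least 1 QC6352 list.

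Among the 7 that kept a peak, the shift was small at the strongest site and larger at others. The region at 140856 kb had percentiles of 98.3 and 98.2 with DMSO and 95.3 and 96.4 with QC6352. At 140876 kb they were 95.9 and 97.8 against 79.9 and 92.0. At 140894 kb they were 96.6 and 96.1 against 87.9 and 88.7. By the rule that selected them, the groups do not overlap at any of the 7. At 140889 kb they were 92.7 and 93.8 against 78.1 and 87.4, and at 140901 kb 95.9 and 95.8 against 83.0 and 84.3. The largest shift of the 7 was at 140797 kb, a site of middle rank, with 65.9 and 59.5 against 49.1 and 23.3. At 140904 kb (chr5:140904107-140904676) they were 80.5 and 75.5 against 73.9 and 70.5. On the lists of 93488 peaks this region had 84.7 to 88.4 in LHCN and 27.3 to 78.1 in RH30, with no overlap, but it missed the threshold between the lines (exact permutation, adjusted p = 0.0861). On the lists of 93488 peaks, 6 and 6 peaks of the interval were in the strongest 10% of the DMSO lists and 1 and 2 in those of QC6352. The other RH30 libraries had 4 or 5. The median change of percentile was −10.7 over the 20 gamma regions and −0.0599 over all regions.

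The QC6352 libraries differed from each other, with 111272 and 176899 deposited peaks. On the lists of 93488 peaks they had 12 and 18 peaks in the interval. The DMSO libraries had 19 and 21 (exact permutation p = 0.333, the smallest possible, adjusted p = 0.513). Beta had 3 and 4 peaks in both groups.

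**Figure D4:**
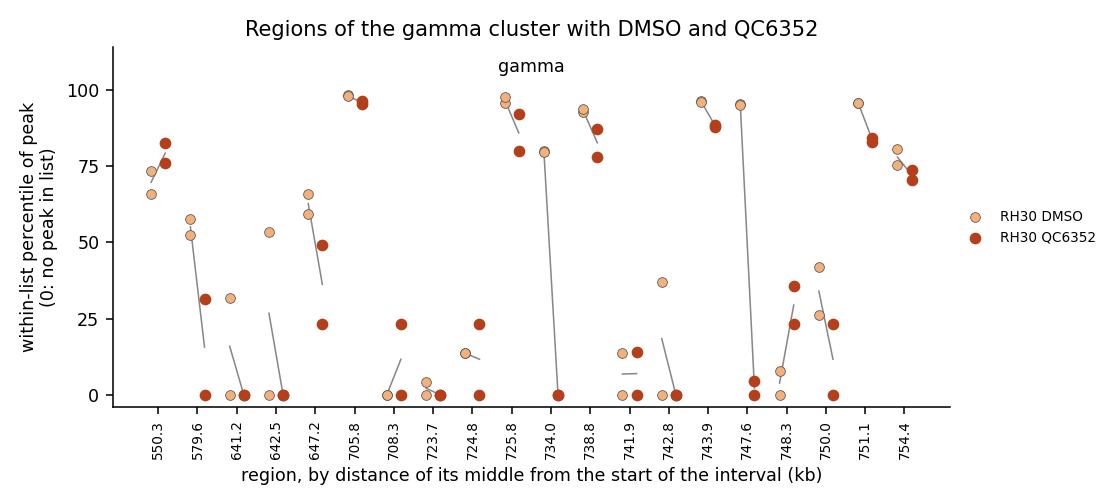
Within-list percentile (y axis) of the 20 gamma regions with DMSO and QC6352, ordered along the interval (x axis, kb from its start); points are libraries, grey lines join the means of 2, and 0 means no peak in the list. The regions 734.0 and 747.6 kb from the start go from percentiles near 80 and 95 to 0 and to at most 4.42, and most other strong regions lie lower with QC6352.

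Both hairpins are compared with the same 2 shCtrl libraries. With shKDM4B-813, 3 of 26 regions were gained (11.5%), against 11.2% of all regions, and 0 were lost, against 7.19%. With shKDM4B-814, 1 of 26 was gained (3.85%), against 5.68%, and 0 were lost, against 5.72%. The region gained with either hairpin was at 140421 kb in beta (chr5:140420631-140421023). Its percentiles were 0 and 0 in shCtrl cells, 61.0 and 47.0 for hairpin shKDM4B-813 and 30.8 and 30.4 for shKDM4B-814. RH30 cells with DMSO, which carry no hairpin, had a peak there at 44.9 and 29.0, so shCtrl stood apart from every other group of the series at this site. With DMSO in place of shCtrl, shKDM4B-814 had 0 gained regions. With 1 library left out, shKDM4B-813 had up to 6 gained (without the second shCtrl library) and shKDM4B-814 up to 4 (without its first library). Shares of all regions were not computed for these counts.

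The other regions gained with shKDM4B-813 were at 140384 kb in alpha (chr5:140383551-140384098), at 51.8 and 42.2, and at 140791 kb in gamma (chr5:140791016-140791427), at 35.5 and 47.0. At 140791 kb the deposited list of 1 shCtrl library also holds a weaker peak. Over both directions, shKDM4B-813 ranked above shCtrl in 7 of 23 regions (30.4%), against 22.7% of all, and below in 3 of 23 (13.0%), against 20.0%. For shKDM4B-814 these were 1 of 22 (4.55%) and 2 of 22 (9.09%), against 16.9% of all in each direction. The shared beta region at 140474 kb had percentiles of 68.4 and 76.4 with shCtrl and 85.2 and 86.9 with shKDM4B-813. The difference between the 2 hairpins was not tested.

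The gamma region at 140884 kb ranked lower with both hairpins. It had percentiles of 87.6 and 84.5 in shCtrl cells, 26.2 and 58.1 for hairpin shKDM4B-813 and 71.5 and 44.3 for shKDM4B-814. It kept a peak in all 4 hairpin libraries, unlike with QC6352. At 140894 kb the percentiles were 96.6 and 96.3 in shCtrl cells, 95.7 and 95.3 for hairpin shKDM4B-813 and 95.4 and 95.9 for shKDM4B-814, a difference of about 1 percentile. Both hairpins share their controls, so the agreement in direction does not count as 2 separate results. Total peak number was 13.0 ± 1.41 in shCtrl cells, 18.0 ± 1.41 for hairpin shKDM4B-813 and 14.5 ± 0.707 for shKDM4B-814 (SD, n = 2). The exact permutation p was 0.333 and 0.667, with adjusted p of 0.513 and 0.833. As a share of chromosome 5 peaks the direction turned, with 0.355% in shCtrl cells, 0.349% for hairpin shKDM4B-813 and 0.319% for shKDM4B-814.

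**Figure D5:**
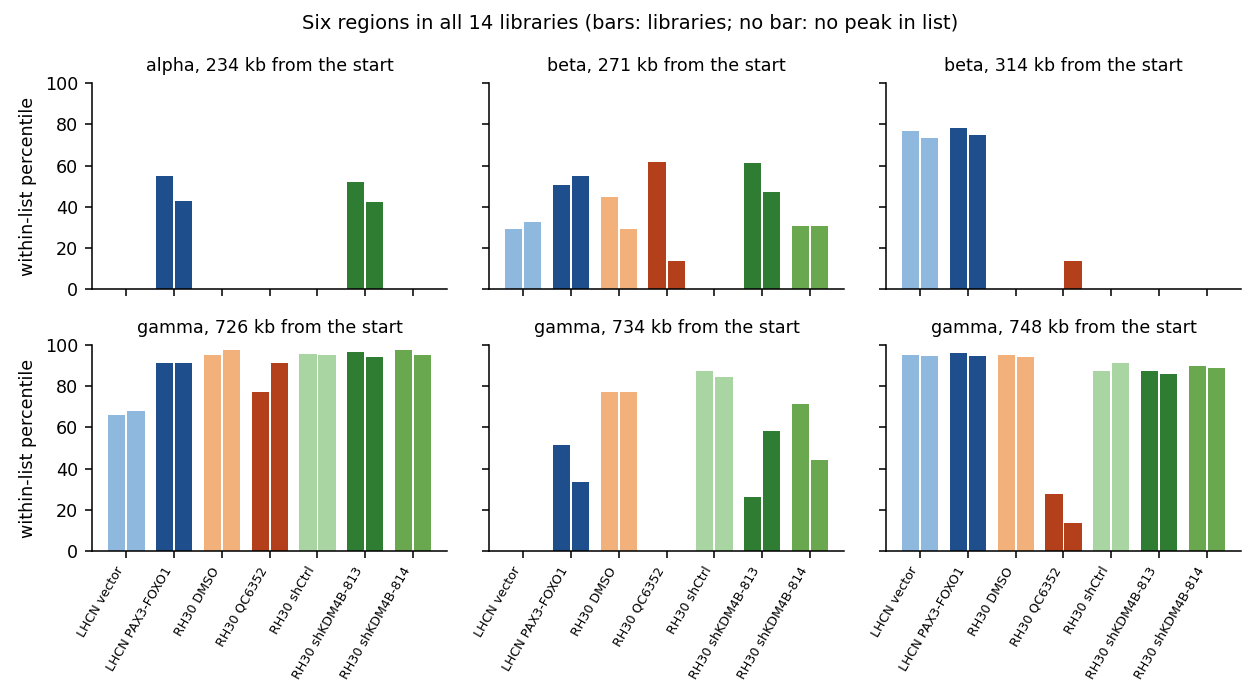
Within-list percentile (y axis, lists of 93488 peaks) in all 14 libraries (bars, 2 per group) for 6 regions chosen for their large differences. Panels are labelled by part and distance from the start of the interval in kb. The gamma region 734 kb from the start is absent with vector and QC6352, and the gamma region 748 kb from the start is high in every group except QC6352.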

How the data were processed

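ATAC-seq peak lists of 14 libraries, 7 groups of 2 taken from the sample titles, were analysed. The submitters' processing notes name MACS2 2.1.1, BWA 0.7.12-r1039, SAMtools 1.3.1, Picard 1.65 and build hg19. Their settings, filters on reads and handling of the Tn5 offset were not given in the sources used here, and depth is unknown. The authors deposited 1 narrowPeak list per library, with a score per peak (not used), a fold over background (a ratio), a −log10 p (not used), a −log10 q and a summit offset. The fold is the authors' value and only describes peaks within a list. The lowest −log10 q per list was 2.00 to 2.60, so a missing peak means only that none passed that limit.

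Peaks were ordered by −log10 q, then fold, then position, and lists were trimmed to equal length. Percentiles use the mean rank of tied peaks. Peaks overlapping by 1 bp were merged into regions. A region was gained if all treated and no control libraries had a peak, and lost in the reverse case. The share of all regions called the same way is given beside counts on the main lists. It was not computed for other list settings or with a library left out. Those counts show only how the number moved. Peak numbers, on the lists of 93488 peaks in every comparison, were compared by two-sided exact permutation over libraries, with Benjamini-Hochberg adjustment over 20 tests. Single libraries were the unit, also where groups were pooled by line. The calling and permutation code was tested on simulated data.

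The members, lists and tests were chosen with earlier results of these data known. Named regions are those in most libraries, up to 6 per cluster, the strongest per cluster and line, and the gained and lost regions, up to 6 per direction between lines and up to 5 within experiments. The test per region between lines, the rule that every treated library ranks above or below every control, the share of chromosome 5 peaks and the regions named for them were chosen after seeing the data. So were the peak numbers of chromosome 5 and of the flanks. Promoter sequences are RefSeq's for GRCh38.p14 (27305 genes, the first listed start of each), and hg19 gene positions and marker genes were not used here. Alternatives covered the lists as deposited, −log10 q of at least 10, the 50000 strongest peaks, merged regions in place of peaks, ties at the list limit, coverage of 50% of a region, replicate blocks and each library left out. Python 3 with numpy and pandas was used.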

Additional observations from a re-analysis of the deposited data

How the results depend on the processing

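Beta peak number kept its direction in every setting run, and the difference between lines over all 3 parts (−11.2 peaks, RH30 minus LHCN) kept its direction too. As a share of chromosome 5 peaks the latter (−0.109 percentage points) missed the threshold adjusted over 20 tests (0.0599) and passed over the 5 added tests (0.00999). It missed the threshold with control libraries only (−7.50 peaks) and with only DMSO and QC6352 libraries for RH30 (−9.75), where fewer libraries also limit the p. Leaving out 1 library gave −12.9 to −9.57. Gamma peak number, with an adjusted p of 0.0533, passed at a −log10 q of at least 10 (0.00666), with the 50000 strongest peaks (0.01998), with merged regions (0.01998), with ties dropped (0.0133) and without either DMSO library (0.0466 and 0.0186). It did not pass per 100000 deposited peaks (0.444), as a percent of chromosome 5 peaks (0.579), in control libraries only (0.889), in the DMSO and QC6352 libraries against LHCN (0.513), with ties kept (0.0533), with the replicate block (0.0756) or without any other single library (up to 0.140). The shKDM4B-814 difference in peak number, 1.5 in the main setting, turned to −0.500 with ties kept. As shares of chromosome 5 peaks, both hairpin differences were negative, −0.00615 for shKDM4B-813 and −0.0365 for shKDM4B-814. The cause was not tested.

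No share of all regions was computed for the changed settings that follow. Between control libraries of the lines, 1 region was gained and 9 were lost. The lists as deposited gave 0 and 24, a −log10 q of at least 10 gave 0 and 18, and the 50000 strongest peaks gave 5 lost. Requiring no deposited peak in the other group gave 0 gained, and DMSO as the only RH30 control gave 5 gained. For PAX3-FOXO1, lost regions went from 2 to 1 with lists as deposited, with the 50000 strongest peaks and with no deposited peak in the other group, and gained regions from 4 to 2 with the 50000 strongest. The alpha regions ranking higher went from 7 to 3 with a −log10 q of at least 10 and to 0 with the 50000 strongest, where gamma regions ranking lower went from 11 to 5. For QC6352, lost regions went from 2 to 4 with a −log10 q of at least 10 and with the 50000 strongest, and gained regions from 0 to 1 when a peak had to cover 50% of the region. For shKDM4B-813, gained regions went from 3 to 5 with a −log10 q of at least 10 and to 1 with the 50000 strongest. Lost regions went from 0 to 2 with lists as deposited, to 1 with ties kept and to 3 with DMSO in place of shCtrl. For shKDM4B-814, gained regions went from 1 to 0 with a −log10 q of at least 10, with the 50000 strongest and with DMSO in place of shCtrl. Lost regions went from 0 to 3 with lists as deposited, to 1 with ties kept and to 3 with DMSO in place of shCtrl.

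Leaving out 1 library, which loosens the rule, gave 1 to 3 gained regions between the lines (3 without the second shCtrl library) and 9 to 12 lost. For PAX3-FOXO1 it gave 4 to 10 gained (10 without either fusion library), 3 to 4 lost, and 7 to 13 alpha regions ranking higher. QC6352 had 0 to 3 gained (3 without its first library) and 2 to 6 lost (6 without its second). For shKDM4B-813 it gave 4 to 6 gained and 0 to 2 lost, and for shKDM4B-814 1 to 4 gained and 0 to 3 lost.

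The groups share replicate numbers that no label ties to a batch. Deviations of libraries with the same number correlated at 0.0954 for PAX3-FOXO1, −0.221 for QC6352, 0.0127 for shKDM4B-813 and 0.0483 for shKDM4B-814, so the numbers were not taken as pairs. With the replicate number as a block, the line difference in peak number had the same value (−11.2; exact permutation within numbers, p = 0.00227, adjusted p = 0.0227), no other call changed, gained and lost counts are the same by construction, and gamma regions ranking lower with PAX3-FOXO1 numbered 12 in place of 11. Depth is unknown, so a missing peak says only that none passed the caller's limit.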
